A study of Citrus maxima with 12 samples.

Results

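A set of 49 genes whose expression at least doubled in diseased fruit of both pomelo cultivars studied was described, out of 32863 gene identifiers in the table. Pomelo (Citrus maxima) is a large-fruited citrus species. Messenger RNA of fruit was sequenced in 4 groups of 3 libraries, namely control and diseased fruit of the cultivar Jinsha and control and diseased fruit of the cultivar Jinlan, where the disease is yellow spot disease. No age of the fruit, stage of the disease or further treatment is named in the labels, and the labels do not say whether replicates came from separate fruits or trees, so the p-values measure the spread between these libraries, which may be technical. Levels are in FPKM, which divides the fragments of a gene by its transcript length and by all fragments mapped in that library.

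The genes were chosen by a rule on these same values. The change in a cultivar was taken as the log2 ratio of the mean FPKM of diseased to that of control libraries, with 1 added to each mean, and had to be at least 1 in Jinsha and at least 1 in Jinlan. It was at least 1 for 404 genes in Jinsha and for 765 in Jinlan, and 49 were in both lists, 12.1% of the Jinsha list and 6.41% of the Jinlan list. The rise in diseased fruit is therefore a property by which the genes were picked and is given below as a description.

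Plant tissue under attack is known to change the expression of many genes, among them those for pathogenesis-related proteins and for enzymes of phenylpropanoid and flavonoid synthesis, and diseased fruit can also show changes of ripening and cell wall genes. The identifiers of the table were not paired with names or products, and no genome or sequence was used. No function is therefore given for any of the 49 genes, none can be placed in these pathways, and the fruit label was not checked against marker genes. In bulk tissue, more cells of a type and more RNA per cell cannot be told apart.

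The genes ranged from low to high expression. Their mean over the 6 diseased libraries ran from 2.54 to 439 FPKM with a median of 17.98 FPKM, and that over the 6 control libraries from 0.29 to 182 FPKM with a median of 6.54 FPKM. In diseased fruit 33 of the 49 reached a mean of 10 FPKM, 11 reached 50 FPKM and 3 reached 100 FPKM. Together they made up 0.13 ± 0.0040% of all FPKM in control and 0.378 ± 0.019% in diseased Jinsha libraries, and 0.127 ± 0.022% and 0.343 ± 0.025% in Jinlan (SD, n = 3 per group). All 49 had at least 1 FPKM in at least 3 of the 12 libraries, the condition for being tested, and 45 met it on control libraries alone. The other 4 passed with the help of the diseased libraries, in which the rule requires them to be high.

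In every one of the 49 genes, all diseased libraries of a cultivar lay above all its control libraries, in Jinsha and in Jinlan alike. Over the 17120 genes tested this held for 30.6% in Jinsha and 34.5% in Jinlan. In the limma fit over all tested genes, all 49 were called higher in diseased fruit in both cultivars at an adjusted p below 0.05, against 27.3% of tested genes in Jinsha and 31.4% in Jinlan. The rule used these contrasts, so neither count is read further. The lowest diseased value was 1.44 to 21.1 times the highest control value of the same gene in Jinsha and 1.2 to 3.63 times in Jinlan. Across cultivars, all 6 diseased libraries lay above all 6 control libraries for 42 of the 49 genes (6.27% of genes tested), and for the other 7 a control level in one cultivar reached a diseased level in the other. The rule requires a rise in both cultivars, so the count of 42 is not read further either.

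**Figure D1:**
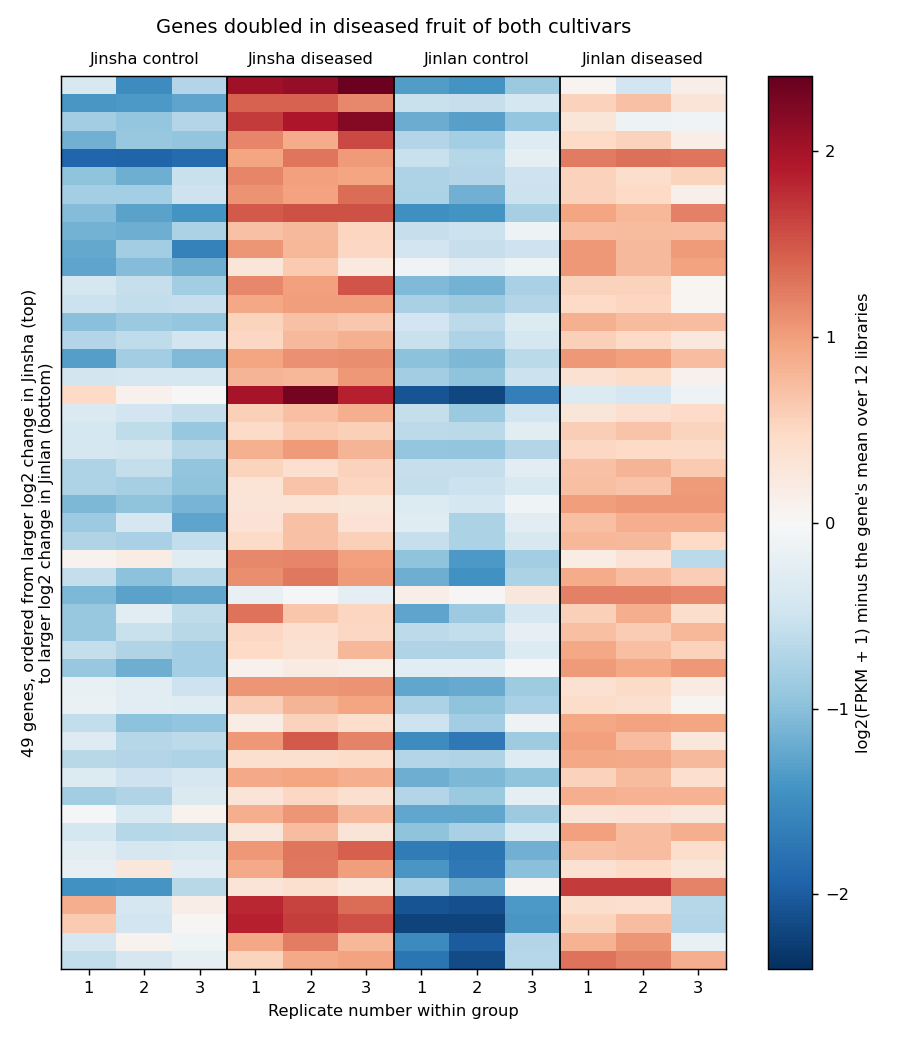
Heat map of the 49 genes (rows) in the 12 libraries (columns), coloured by log2(FPKM + 1) minus the gene's own mean over all libraries, with rows ordered by the difference between the log2 changes of Jinlan and Jinsha. Diseased libraries are redder than the control libraries of their cultivar in all 49 rows, and Jinlan control replicate 3 is paler than Jinlan control replicates 1 and 2 in most rows.

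The size of the rise was moderate in most of the genes. The log2 change had a median of 1.36 in Jinsha (range 1.004 to 2.98) and 1.32 in Jinlan (range 1.001 to 2.52), while the medians over all tested genes were -0.02 and 0.01. The ratio of the mean FPKM values, with nothing added, had a median of 3.35-fold in Jinsha and 3.17-fold in Jinlan. In 8 of the 49 genes both log2 changes reached 1.5, and in 1 both reached 2. In 25 the smaller of both changes lay under 1.2, close to the threshold of 1.

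**Figure D2:**
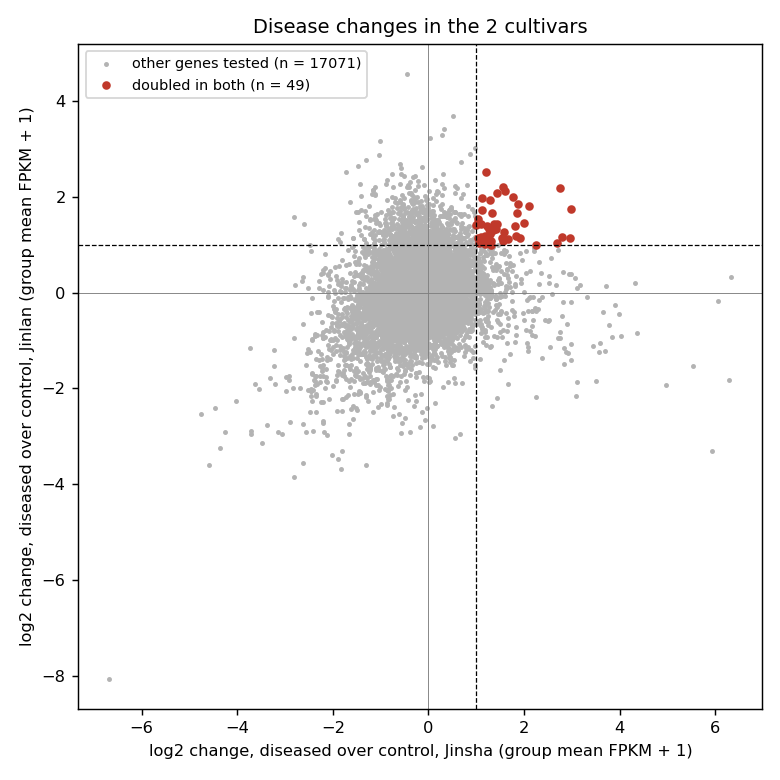
Log2 change from control to diseased fruit in Jinsha (horizontal axis) and Jinlan (vertical axis) for the 17120 genes tested, from group means of FPKM plus 1, with dashed lines at the threshold of 1. The 49 genes chosen (red) fill the corner above both lines, with many close to a line and none above 2.98 in Jinsha or 2.52 in Jinlan.

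Cg8g023030 had the highest smaller change. It was at 10.3, 8.46 and 7.51 FPKM in Jinsha control replicates 1 to 3 and at 63.0, 65.6 and 65.5 FPKM in the diseased ones. In Jinlan it was at 7.38, 7.62 and 12.2 FPKM in control and 43.4, 39.3 and 52.6 FPKM in diseased libraries. Control levels of the cultivars overlapped, while the diseased Jinsha libraries all lay above the diseased Jinlan ones. Its log2 change was 2.75 in Jinsha and 2.19 in Jinlan, and it was the gene in which both reached 2.

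Cg6g016580 followed, with log2 changes of 1.88 in Jinsha and 1.85 in Jinlan. Its levels were 18.3, 13.5 and 16.7 FPKM in control and 61.2, 67.8 and 57.1 FPKM in diseased Jinsha libraries. In Jinlan they were 11.6, 9.47 and 15.8 FPKM in control and 51.9, 46.8 and 42.2 FPKM in diseased libraries. The rise was of nearly the same size in both cultivars, from a somewhat lower level in Jinlan.

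The most abundant of the genes was Cg4g017510. It was at 169, 163 and 187 FPKM in control and 389, 461 and 420 FPKM in diseased Jinsha libraries, and at 190, 165 and 217 FPKM in control and 487, 482 and 393 FPKM in diseased Jinlan libraries. Both cultivars overlapped in control and in diseased fruit, and the log2 changes were 1.29 and 1.25. Cg5g019260 came second in abundance, with 82.2, 79.4 and 107 FPKM in control and 294, 309 and 260 FPKM in diseased Jinsha libraries. In Jinlan it had 123, 127 and 166 FPKM in control and 303, 309 and 302 FPKM in diseased libraries. Its control level was higher in Jinlan than in any Jinsha control library, its diseased levels overlapped, and its log2 change was 1.67 in Jinsha and 1.13 in Jinlan. These 2 genes carried 33.4 ± 0.503% of the summed FPKM of the 49 genes in diseased Jinsha libraries and 39.3 ± 0.399% in diseased Jinlan libraries (SD, n = 3).

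**Figure D3:**
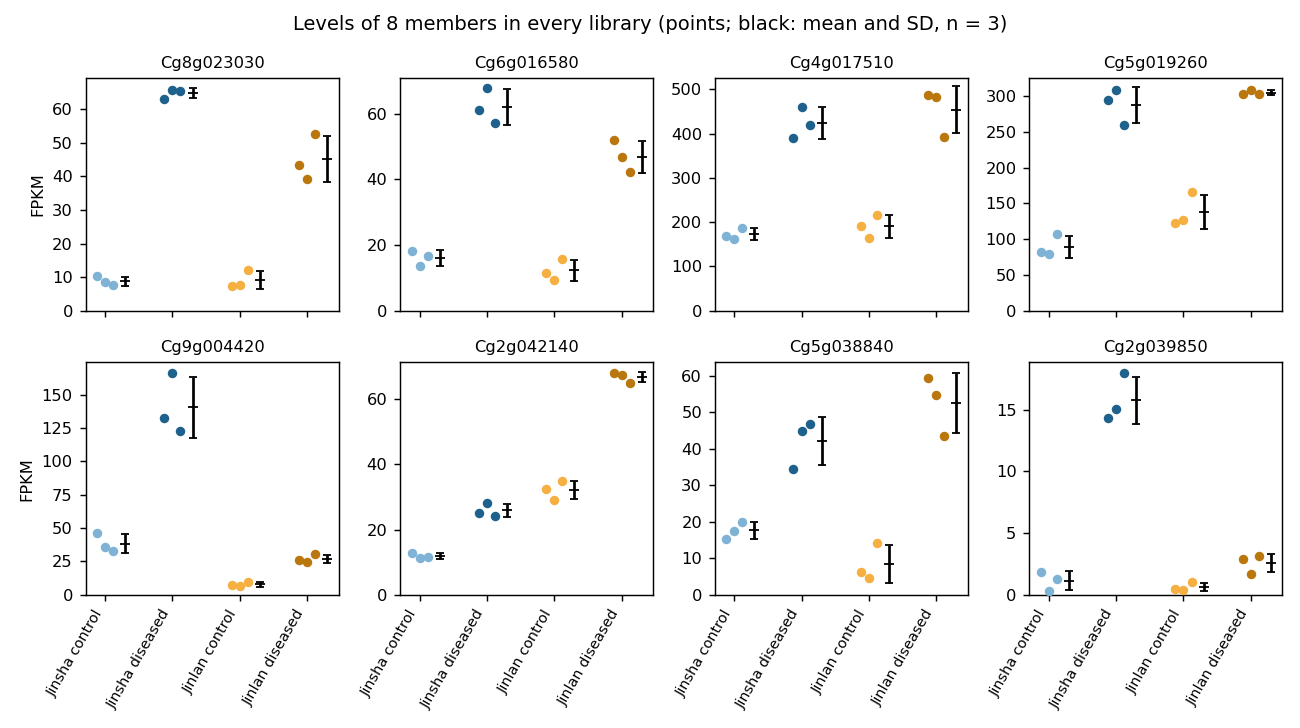
FPKM of 8 of the 49 genes in each library (points), by group, with the mean and SD of the 3 libraries in black and linear axes from 0. In each panel the diseased libraries lie above the control libraries of the same cultivar. The diseased Jinlan libraries of Cg9g004420, at 24.5 to 30.2 FPKM, lie below its Jinsha control libraries at 32.8 to 46.2 FPKM.

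Among genes low in control fruit, 5 were under 1 FPKM in all Jinsha control libraries, 4 in all Jinlan control libraries and 2 in both. Ratios are large where the control level is near 0. Cg6g020190 was listed at 0 and had 0.183 and 0.147 FPKM in Jinsha control replicates 1 to 3, and 4.01, 3.12 and 5.68 FPKM in the diseased ones. In Jinlan it went from 0.367, 0.259 and 0.784 FPKM to 2.11, 2.25 and 1.47 FPKM. With 1 added to each mean the log2 changes were 2.25 and 1.001, which placed it just inside the threshold through Jinlan. The largest log2 change in Jinsha was that of Cg2g035590, from 0.357, 0.334 and 0.415 FPKM to 8.75, 11.3 and 9.27 FPKM. In Jinlan that gene went from 2.5, 2.15 and 3.31 FPKM to 11.1, 11.7 and 11.3 FPKM, so the control levels differed between the cultivars while the diseased levels overlapped.

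The threshold itself separated genes of nearly equal change. Just inside it, beside Cg6g020190, was Cg2g018720, with log2 changes of 1.30 in Jinsha and 1.002 in Jinlan, at 0.574 ± 0.148 and 2.88 ± 0.47 FPKM in control and diseased Jinsha fruit and 0.602 ± 0.172 and 2.21 ± 0.354 FPKM in Jinlan (SD, n = 3 per group). Just outside were Cg1g008180, with 0.997 in Jinsha and 1.04 in Jinlan, and Cg2g033540, with 1.46 in Jinsha and 0.995 in Jinlan. Mean levels of Cg1g008180 were 1.25 FPKM in control and 3.49 FPKM in diseased Jinsha fruit, and 1.26 and 3.67 FPKM in Jinlan. The number added to the means decides who is in, and not only at such levels. With 0.1 in place of 1 the rule took 168 genes, all 49 among them, and with 5 it took 14, all from the 49. With 5 added, the log2 change in Jinsha of Cg2g042140 was 0.87, at means of 11.9 FPKM in control and 25.9 FPKM in diseased fruit.

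The control and diseased levels of the cultivars were next compared for the 49 genes with a measure that the rule does not use directly, the mean of control and diseased fruit in Jinlan minus that in Jinsha on the log2(FPKM + 1) scale. At an adjusted p below 0.05 in limma, Jinlan was higher for 15 of the 49 genes and lower for 21, and 13 were not called. The 36 called genes were 73.5% of the 49, beside 68.2% of all tested genes (25.4% higher and 42.8% lower in Jinlan). All 36 were among the 45 genes that passed the filter on control libraries alone, and the other 4 of the 49 were not called. The median difference was -0.22 for the 49 genes and -0.09 for all tested genes, and the median of its absolute size was 0.43 and 0.24. A difference of at least 2-fold was called for 7 of the 49, 1 higher and 6 lower in Jinlan, while 4.1% of tested genes had one. The 6 lower include Cg9g028450 and Cg9g028480, described below. Such differences were not particular to the 49 genes. Among genes doubled in Jinsha and not in Jinlan, a 2-fold difference was called for 71 of 348 tested. Among those doubled in Jinlan and not in Jinsha, it was called for 130 of 712. The median absolute size in these parts was 0.49 and 0.52, and 81.9% and 74.3% of their tested genes were called at any size. For the 13 of the 49 genes not called, the estimates lay between -0.40 and 0.24, and a missed threshold does not show equal levels.

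The balance of directions over all genes depended on scaling. Of the genes called, 37.2% were higher in Jinlan with FPKM as given and 48.5% after median-ratio scaling, whereas among the 49 genes the share was 41.7% as given and 44.7% after that scaling. Each cultivar's mean contains its diseased fruit, so this difference also moves with a disease change that is larger in one cultivar.

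**Figure D4:**
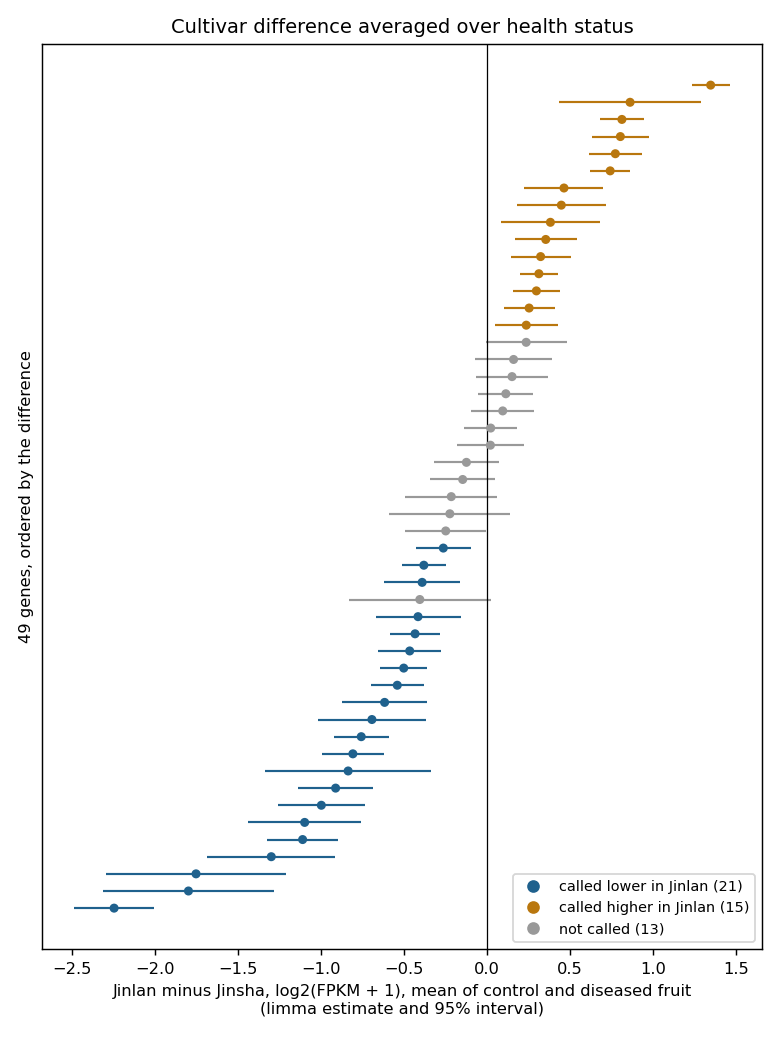
Jinlan minus Jinsha on the log2(FPKM + 1) scale, averaged over control and diseased fruit, for the 49 genes in order of size (limma estimate as a point, 95% interval as a line). Blue marks the 21 genes called lower and orange the 15 called higher in Jinlan, with the 13 genes not called in grey, and the estimates run from -2.25 to 1.35.

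Cg9g004420 had the largest difference, -2.25 (SE 0.11, limma adjusted p = 3.71e-09). It was at 46.2, 35.5 and 32.8 FPKM in control and 133, 166 and 123 FPKM in diseased Jinsha libraries, and at 7.06, 6.49 and 9.81 FPKM in control and 26.0, 24.5 and 30.2 FPKM in diseased Jinlan libraries. Every Jinlan library, diseased ones included, lay below every Jinsha control library. The rise was of like size, with log2 changes of 1.85 and 1.67.

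The opposite order was seen in Cg2g042140, higher in Jinlan by 1.35 (SE 0.05, limma adjusted p = 5.86e-10). It was at 13.0, 11.1 and 11.6 FPKM in control and 25.2, 28.2 and 24.3 FPKM in diseased Jinsha libraries, and at 32.3, 29.2 and 34.8 FPKM in control and 67.9, 67.6 and 65.1 FPKM in diseased Jinlan libraries. Jinlan control fruit already lay above diseased Jinsha fruit in all libraries, and the log2 changes of 1.06 and 1.03 were nearly the same. Cg3g024030 was also higher in Jinlan, by 0.86 (SE 0.20, limma adjusted p = 0.00181), with 0.684, 0.718 and 1.92 FPKM in control and 4.69, 5 and 4.50 FPKM in diseased Jinsha libraries. Its Jinlan levels were 1.62, 1.01 and 3.82 FPKM in control and 13.7, 13.7 and 9.5 FPKM in diseased libraries. Control libraries of the cultivars overlapped for this gene and diseased libraries did not.

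Cg9g028480 was lower in Jinlan by a log2 difference of -1.80 (SE 0.24, limma adjusted p = 2.21e-05). In Jinsha it was at 7.68, 2.58 and 4.25 FPKM in control and 15.5, 13.6 and 11.04 FPKM in diseased libraries. In Jinlan it was at 0.128, 0.0949 and 0.829 FPKM in control and 5.37, 5.22 and 1.96 FPKM in diseased libraries. The diseased Jinlan libraries thus overlapped the Jinsha control libraries.

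Cg9g028450, named because of its identifier after its values had been seen, had nearly the same profile. Its levels were 7.07, 2.81 and 4.32 FPKM in control and 18.02, 15.6 and 14.3 FPKM in diseased Jinsha libraries, and 0.124, 0.123 and 0.988 FPKM in control and 6.6, 7.76 and 2.22 FPKM in diseased Jinlan libraries. The ratio of Cg9g028450 to Cg9g028480 stayed between 0.921 and 1.49 in all 12 libraries. Their identifier numbers differ by 30, in a table whose numbers run in steps of 10, and both identifiers between them, Cg9g028460 and Cg9g028470, were listed at 0 in all libraries. Whether these 2 genes share reads was not tested, and if they do they are 1 observation and not 2.

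There were 3 such pairs among the 49 genes with identifier numbers at most 30 apart, all named after their values were seen. Cg3g015560 and Cg3g015570 differed in level, at 155 ± 13.2 and 7.25 ± 1.37 FPKM in diseased Jinlan fruit (SD, n = 3), and their ratio ran from 8.46 to 34.9 over the libraries. Cg9g001560 and Cg9g001580 stood at 19.7 ± 2.09 and 12.9 ± 2.66 FPKM in diseased Jinsha fruit and both were called lower in Jinlan on average (-0.81 and -0.62, limma adjusted p = 3.68e-06 and 0.000504). The identifier between them, Cg9g001570, was not in the set and was lower in diseased fruit, with log2 changes of -0.74 in Jinsha and -0.49 in Jinlan. By prefix, 9 of the 49 identifiers began with Cg9g, 18.4%, beside 8.07% of the genes tested, 9 began with Cg2g (18.4% beside 15.9%) and none with Cg7g (8.66% of the genes tested) or CgUng (2.65%). Of the 9 Cg9g genes, Cg9g028450 and Cg9g028480 included, 7 were called lower in Jinlan and 1 higher on average over control and diseased fruit, beside 43.4% lower and 25.6% higher among the 1381 tested Cg9g genes. A further 4 of the 49, 8.16%, carried the prefix NewGene, beside 6.19% of the genes tested. The prefixes are described only, since the table gives no positions.

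Which cultivar had the larger log2 change depended on the libraries used. Jinsha had it for 31 genes and Jinlan for 18 with all libraries, and Jinsha for 19 and Jinlan for 30 without Jinlan control replicate 3. No other single library turned the order when left out, but several brought the numbers closer. They were 25 and 24 without Jinsha control replicate 3, and 26 and 23 without Jinsha disease replicate 2. Without Jinlan disease replicate 3 they were 27 and 22. With group medians in place of means the numbers were 24 and 25. With all libraries, both log2 changes lay within 0.5 of each other for 31 genes. They were 1 or more apart for 6 genes. In limma the difference between the disease changes was called for 17 of the 49 genes, 34.7%, with 11 larger in Jinsha and 6 larger in Jinlan, beside 58.7% of all tested genes (31.5% larger in Jinlan and 27.2% larger in Jinsha). This split turned as well, to 8 larger in Jinsha and 10 larger in Jinlan without Jinlan control replicate 3, and to 9 and 13 without both Jinlan replicates 3. Without any other single library more of the called genes were larger in Jinsha. Without Jinlan control replicate 1 or 2, 11 and 12 were larger in Jinsha and 1 in Jinlan. Without Jinlan disease replicate 3, 11 were larger in Jinsha and 6 in Jinlan. Both changes had to pass the same threshold, so the rule acts on this difference too, and the count is not read further.

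The largest excess in Jinlan was found in Cg5g038840. It was at 15.3, 17.6 and 20.04 FPKM in control and 34.6, 45.0 and 46.6 FPKM in diseased Jinsha libraries, and at 6.25, 4.53 and 14.3 FPKM in control and 59.4, 54.7 and 43.5 FPKM in diseased Jinlan libraries. Jinlan thus started below Jinsha in all control libraries and overlapped it in diseased fruit, with log2 changes of 1.21 in Jinsha and 2.52 in Jinlan. Cg5g010000 came next, with 1.13 in Jinsha and 1.97 in Jinlan, though limma did not call this difference. It had 34.4, 48.6 and 42.6 FPKM in control and 88, 110 and 81.1 FPKM in diseased Jinsha libraries. In Jinlan, where it had 15.3, 10.8 and 28.0 FPKM in control and 82.7, 97.7 and 40.4 FPKM in diseased libraries, the replicates 3 lay closest together.

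The largest excess in Jinsha was that of Cg2g039850, with log2 changes of 2.96 in Jinsha and 1.14 in Jinlan. Its Jinsha levels were 1.86, 0.308 and 1.28 FPKM in control and 14.3, 15.02 and 17.9 FPKM in diseased libraries. Its Jinlan levels were 0.471, 0.385 and 1.01 FPKM in control and 2.88, 1.70 and 3.12 FPKM in diseased libraries. Control libraries of the cultivars overlapped, and the diseased Jinsha libraries lay far above the diseased Jinlan ones. Cg2g036370 changed by 2.69 in Jinsha, from 1.32, 1.34 and 1.53 FPKM to 15.4, 15.4 and 12.6 FPKM. In Jinlan it changed by 1.04, from 3.22, 3.17 and 3.57 FPKM to 7.99, 9.02 and 6.60 FPKM. Here the order of the cultivars was turned, with Jinlan higher in all control and Jinsha higher in all diseased libraries, and the cultivar average was not called (0.02, SE 0.07, limma adjusted p = 0.797).

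Within groups, the replicates of Jinlan were not alike for the 49 genes. Jinlan control replicate 3 was the highest of the 3 Jinlan control libraries in 46 of the 49 genes, beside 27.5% of all tested genes, and the lowest in 0. Jinlan control replicate 2 was the lowest in 38 of the 49, beside 33.1% of all tested genes. In 32 genes the value of replicate 3 was at least 1.2 times both others. That count was made for the 49 genes only, with no share over all tested genes beside it, and is not read further. In diseased Jinlan fruit, replicate 3 was the lowest of 3 in 33 genes, beside 37.3% of all tested genes. Both orders held together in 32 of the 49 genes, and in 13.2% of all tested genes. With the single orders at 46 and 33 of the 49, the joint count is largely set by them and is not read further. The rule used group means, to which each library contributes, and whether it favoured genes with this order was not tested.

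In Jinlan control replicate 3 the 49 genes stood at a median of 0.249 of the way from the mean of the other control libraries to the mean of the diseased ones, on the log2(FPKM + 1) scale (quartiles 0.191 to 0.317), and all 49 were shifted in that direction. This position was taken for the 49 genes only. All of them are higher in diseased fruit by the rule, so such a shift means only a level above the mean of the other control libraries. The same measure towards control fruit was 0.115 in Jinlan disease replicate 3 (quartiles -0.00769 to 0.25). In the other 4 Jinlan libraries the medians lay between -0.187 and -0.0451, and in the 6 Jinsha libraries between -0.0475 and 0.064. The order was also found outside these genes: Jinlan control replicate 3 was also the highest in 90.6% of the 712 tested genes that doubled in Jinlan and not in Jinsha. It was the highest in 31.9% of the 348 tested genes that doubled in Jinsha and not in Jinlan. With Jinlan control replicate 3 left out, the log2 change in Jinlan was larger for all 49 genes, with a median of 1.42 in place of 1.32. With both Jinlan replicates 3 left out it was larger for 47, with a median of 1.44. All 49 passed the rule in both cases.

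**Figure D5:**
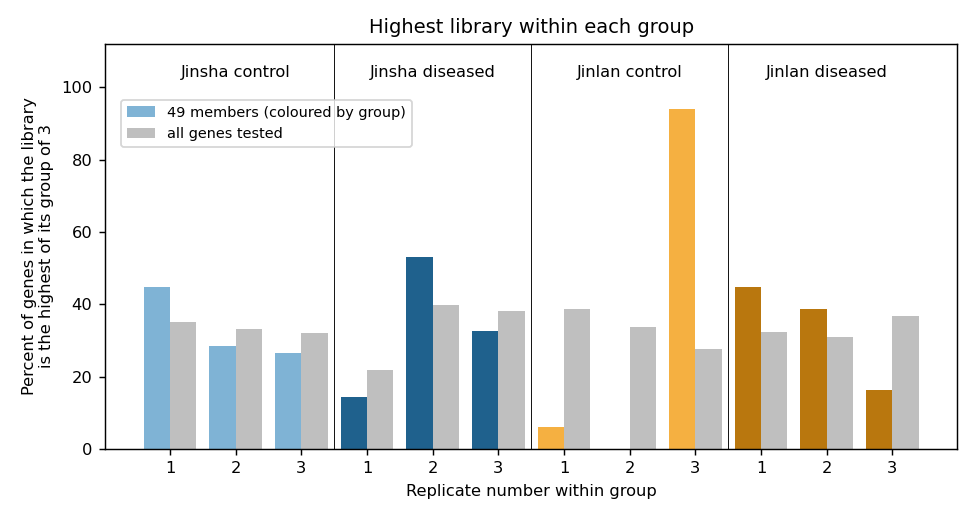
Percent of genes in which each library was the highest of its group of 3, for the 49 genes (coloured by group) and for all 17120 genes tested (grey). Jinlan control replicate 3 stands out at 46 of 49 genes, beside 27.5% of all tested genes. Jinlan control replicate 2 was the highest in 0 of the 49, so only its grey bar is seen, at 33.8% of all tested genes.

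The spread between replicates was wider in these genes than in the typical gene. The median SD of log2(FPKM + 1) within a group was 0.186 in control and 0.157 in diseased Jinsha fruit, and 0.232 in control and 0.158 in diseased Jinlan fruit, while over all tested genes it was 0.0842 to 0.0879. Of the 49, 37 were chosen by the rule whichever 1 of the 12 libraries was left out, and 12 dropped out in at least 1 case. The list had 43 genes without Jinlan control replicate 2 and 56 without Jinlan control replicate 3.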

How the data were processed

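The authors deposited 1 table of FPKM values for 12 libraries, with no counts. Per the labels' protocols, Qiagen columns and a SMARTER kit were used for RNA and libraries. The sources used here do not give the aligner, build, annotation or counting tool. Low values did not fall in steps of whole reads (at most 3.19% of low genes shared a ratio between 2 libraries), so depth is unknown and no counting interval is given. FPKM summed to between 550055 and 575107 per library.

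Group means gave the rule. Values were then taken as log2(FPKM + 1), and limma 3.58.1 in R 4.3.3 was fitted, with 4 group means and a trended empirical Bayes prior, to the 17120 genes that reached 1 FPKM in 3 or more libraries. Benjamini-Hochberg adjustment ran over all genes tested, and an adjusted p below 0.05 is a call. Adding 1 understates changes of low genes. Plots were made in Python 3.11.15 with matplotlib 3.10.9.

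Members, comparisons and alternatives were chosen with earlier results of these data known. At most 2 genes per class and direction were named by rule, namely the extremes of the smaller change, of abundance, of the cultivar difference, of the difference in change and of the distance to the threshold. Cg9g028450, Cg9g028460, Cg9g028470, Cg9g001560, Cg9g001570, Cg9g001580, Cg3g015560, Cg3g015570 and Cg2g035590 were named after their values were seen. Lists by function could not be used, as 0 identifiers carried a name. Alternatives were other pseudocounts, filters, scalings, group averages and variance models, a block for the replicate number, and leaving out libraries.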

Additional observations from a re-analysis of the deposited data

Results flagged for a closer look

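The disease change differed between the cultivars, by the interaction term in limma, for 17 of the 49 genes, 34.7%, beside 58.7% of all tested genes. This difference is taken between both changes that the rule used, so the count is not read further. Among the genes named by rule the log2 differences, Jinlan change minus Jinsha change, were 1.44 for Cg5g038840, -1.90 for Cg2g039850, -1.65 for Cg2g036370, -1.21 for Cg6g020190 and -0.54 for Cg5g019260. Cg2g039850, Cg2g036370 and Cg5g038840 were named for the size of this difference, so their presence here was largely set by that choice. Cg5g010000, also named for the size of this difference, was not called (0.85, SE 0.46, limma adjusted p = 0.131). Cg6g020190 was named for its distance to the threshold, as was Cg2g018720, which was not called (-0.30, SE 0.18, limma adjusted p = 0.176). Both passed the filter only with the help of the diseased libraries. Cg6g020190 lay at the threshold through its Jinlan change of 1.001, beside 2.25 in Jinsha. The negative sign of its difference was therefore largely set by that choice too. With no filter on low values 11 of the 49 genes were called, and without both Jinlan replicates 3 it was 22.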

How the results depend on the processing

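The rule took 49 genes, 168 with a pseudocount of 0.1 and 14 with 5, 50 after median-ratio scaling, 54 after quantile normalization, 55 from group medians and 59 without both Jinlan replicates 3. Leaving out 1 library gave 43 to 56 genes. All 49 were called higher in diseased fruit of both cultivars under the alternatives that tested them; a filter at 5 FPKM left 43 to test. The cultivar average was called for 36 genes, for 35 to 37 when 1 library was left out, and for 36 with the replicate number as a block. None of the 36 changed sign under any alternative, 33 were called in each alternative that tested them, and 8 of the 13 uncalled genes were called in at least 1. The difference of the disease changes was called for 17 genes, for 12 to 18 when 1 library was left out, for 11 with no filter on low values, for 13 with the replicate block and for 22 without both Jinlan replicates 3, where 13 were larger in Jinlan and 9 in Jinsha. Same-numbered libraries did not deviate together over the tested genes: r was -0.17 to 0.0398 over 18 pairs, 0 of them over 0.1. A library correlated best with its own number in 2 of 36 cases. This cannot show whether same-numbered libraries shared a source, which the labels do not say. Limits: each group has 3 libraries, depth is unknown, and identifiers carry no names.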
